A study of Drosophila melanogaster with 12 samples.

Results

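Female midguts in which an RNA interference construct against doublesex (dsxRNAi) was driven in enterocytes were compared with control female midguts carrying a UAS-GFP construct. The comparison used 6 of the 12 RNA-seq libraries of the study, 3 dsxRNAi and 3 control female libraries, chosen by their labels. The male libraries, 3 dsxRNAi and 3 control, entered the same model fit. Both genotypes carried an X chromosome pair of y[1] v[1] over w[*]. On chromosome 2, dsxRNAi flies carried the dsxRNAi construct over mex1-Gal4, and control flies mex1-Gal4 over a wild-type chromosome (+). On chromosome 3, dsxRNAi flies carried tub-Gal80ts over +, and control flies UAS-GFP over tub-Gal80ts. All flies therefore carried mex1-Gal4, which drives expression in enterocytes, and tub-Gal80ts, a temperature-sensitive repressor of Gal4. All were virgin and 10 days old as adults, held for 6 days at 18 °C and then for 4 days at 29 °C, the temperature at which the repressor is inactive. The genotypes differed in both transgenes, in the chromosomes that carry them and in the presence of GFP. An effect of dsx interference therefore cannot be told apart from an effect of the stock in any result of the female contrast. Of 17558 rows of the deposited count table, 9686 genes passed the expression filter and were tested.

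Doublesex is the transcription factor at the end of the somatic sex determination pathway of Drosophila. The splicing factors Sex-lethal and transformer direct female splicing of its transcript, and the male and female proteins share a DNA-binding domain but act differently on many targets. The best known of these targets are the yolk protein genes, which female fat body and ovarian follicle cells express. Enterocytes are the absorptive and secretory cells of the midgut epithelium. They release trypsins, lipases and carbohydrate-cleaving enzymes, line the lumen with the chitin-containing peritrophic matrix, and detoxify ingested compounds.

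Sequencing depth was even, with 39137615 to 42425002 reads assigned to genes in dsxRNAi females and 40389954 to 42214921 in control females. The dsxRNAi females resembled each other closely (Pearson r of log2 CPM 0.9896 to 0.9907 over all tested genes). Control females resembled each other less (r 0.9798 to 0.9825), while the fit used 1 estimate of spread per gene for all groups. Control female 3 was about as close to the dsxRNAi females (r 0.9822 to 0.9845) as to control females 1 and 2 (r 0.9825 and 0.9798), so the number of calls is also given without it. No label says whether replicates were separate animals or pools, so the p-values measure the spread between these samples. Summed enterocyte markers stood at 4279 to 4835 CPM in dsxRNAi females, against 4344 to 4898 CPM in control females, and none of the 9 was called. Markers of progenitors (0 of 13 tested), enteroendocrine hormones (0 of 12), copper cells (0 of 7) and visceral muscle (0 of 17) also gave no call. Among 9 tested genes of enteroendocrine identity and peptide processing 1 was called, nrv3, lower in dsxRNAi females. Over all tested genes 3.46% were called, so lists this short may hold no call and say little about cell numbers. In whole midguts, fewer cells of a type and less RNA per cell cannot be told apart.

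The targeted gene was not called between the female groups. Transcripts of dsx (3R:7924323-7967408, build dm6) stood at 16.5, 22.3 and 19.9 CPM in dsxRNAi females, against 18.6, 20.3 and 21.3 CPM in control females. The groups overlapped throughout, and the fitted log2 change was −0.04 (95% confidence interval −0.31 to 0.24, adjusted p = 0.946 by edgeR's quasi-likelihood test, exact two-sided permutation p = 0.8). With 3 libraries against 3, no exact two-sided permutation p can be below 0.1. The interval leaves out a fall of 0.61 on the log2 scale, the size of the called difference between dsxRNAi and control males, but the test of female against male effects did not pass (adjusted p = 0.172). RNA from the construct itself or from cells other than enterocytes counts towards dsx wherever it is transcribed, and their part was not tested. None of the 12 sex determination genes was called, and their log2 changes lay between −0.16 and 0.09. Among them, Sxl, the splicing regulator that sets the female state, had 139.99, 170.4 and 164 CPM in dsxRNAi females, against 138, 167 and 148 CPM in control females (log2 change 0.07, adjusted p = 0.837). Its target tra had 12.8, 10.3 and 11.8 CPM in dsxRNAi females, against 12.7, 11.5 and 11.5 CPM in control females (log2 change −0.04, adjusted p = 0.924).

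Genes named in the genotypes gave the following values. The mex1 gene itself, whose promoter drives the Gal4, had 195, 197 and 225 CPM in dsxRNAi females, against 246, 216 and 202 CPM in control females and was not called (log2 change −0.11, adjusted p = 0.737). The eye pigment transporter gene w had 7.82, 7.22 and 6.43 CPM in dsxRNAi females, against 10.1, 6.5 and 8.06 CPM in control females, with overlapping groups (log2 change −0.20, adjusted p = 0.627). The pigmentation gene y, mutant in the y[1] chromosome, had 12, 17 and 8 reads in dsxRNAi females, against 5, 1 and 0 in control females, and was not called (adjusted p = 0.0836). It was called without control female 1 (adjusted p 0.0308). In males y was called, with 17, 11 and 10 reads in dsxRNAi males, against 0, 0 and 1 in control males (log2 change 5.06, adjusted p = 0.00447). Too few reads fell on v to test it, with 4, 3 and 8 in dsxRNAi females and 9, 4 and 1 in control females.

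Across all genes, 335 of 9686 (3.46%) differed between dsxRNAi and control females at an adjusted p under 0.05, edgeR's quasi-likelihood test with Benjamini-Hochberg adjustment. Of these, 185 (1.91%) were higher and 150 (1.55%) lower in dsxRNAi females. Among them 169 (1.74%) reached 2-fold, 93 upward and 76 downward, and 94 stayed under 1.5-fold. All 335 had groups that did not overlap, against 17.0% of all tested genes. Genes averaging 500 CPM or more in the female libraries were called 7 times in 303, each time higher, whereas genes under 1 CPM gave 18 higher and 31 lower calls among 1498. Leaving out a library took the number of calls to 204 without dsxRNAi female 2 and to 214 without control female 3. Of the 335 calls, 159 (47.5%) passed in all 12 fits that each left out 1 library, 99 of them higher and 60 lower. The 99 include 21 near-identical copies of the histone repeat on 2L. Where the omission of a library ended the call of a gene described below, that library is named.

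**Figure D1:**
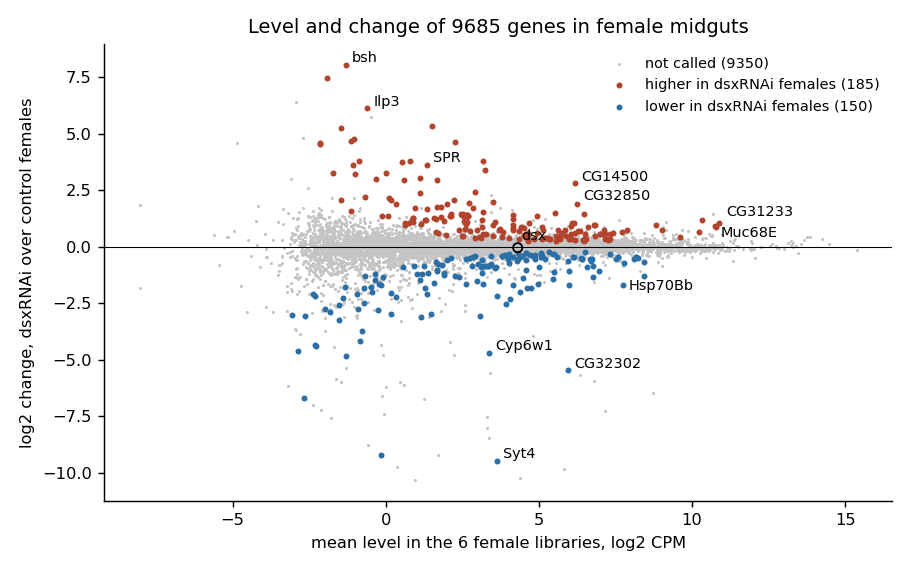
Log2 change between dsxRNAi and control females (y axis) against the mean level in the 6 female libraries (x axis, log2 CPM), 1 point a gene; 1 tested gene with no read in any female library is not drawn. Red points are the 185 genes called higher and blue points the 150 called lower in dsxRNAi females, and the open circle is dsx, which lies at 0. Several grey points far below 0 are genes high in 1 or 2 control females only.

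Of the described doublesex targets, 3 of 7 tested were called, all lower in dsxRNAi females, against 1.55% lower over all tested genes. The list's median log2 change was −1.57 against −0.000885 over all tested genes. Yp3, a yolk protein, had 6.04, 3.22 and 4.47 CPM in dsxRNAi females, against 48.5, 16.3 and 13.6 CPM in control females. It was 5.7-fold lower (log2 change −2.51 ± 0.501 (SE), adjusted p = 0.025), and was not called without dsxRNAi female 1, 2 or 3 (adjusted p 0.0595 to 0.114). Yp2, a second yolk protein, had 7.43, 3.04 and 3.03 CPM in dsxRNAi females, against 34.9, 12.8 and 13.3 CPM in control females (log2 change −2.17 ± 0.489 (SE), adjusted p = 0.0431). In both genes every dsxRNAi female lay below every control female, and control female 1 was the highest by a wide margin. Without control female 1 the log2 change was −1.70 for Yp3 and −1.53 for Yp2. Yp2 was not called without dsxRNAi female 2 or 3, control female 1, dsxRNAi male 1, 2 or 3 or control male 1, 2 or 3 (adjusted p 0.055 to 0.167). The third yolk protein gene, Yp1, had 29.8, 10.3 and 9.08 CPM in dsxRNAi females, against 53.6, 48.1 and 44.9 CPM in control females. Its groups did not overlap, as in 17.0% of all tested genes, and it missed the threshold (log2 change −1.57 ± 0.402 (SE), adjusted p = 0.0741). Without dsxRNAi female 1 its adjusted p was 9.40e-05.

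Markers of fat body, a site of yolk protein synthesis, and of hemocytes were not called. Their summed level, over 11 genes of which none was at 0 in all 6 libraries, was 8.03 to 14.6 CPM in dsxRNAi females, against 13.2 to 23.9 CPM in control females. Of the 7 tested, 6 had a log2 change below 0 and their median was −0.78. Much of the sum came from the hemocyte genes Hml and Pxn. The fat body genes Fbp1, Fbp2, Lsp1beta, Lsp2 and fit each had overlapping groups. The fat body gene to had 8.68 CPM in control female 2 and at most 0.0218 CPM in the other female libraries. Markers of ovary summed to 5.94, 1.99 and 2.01 CPM in dsxRNAi females, against 2.24, 1.83 and 2.94 CPM in control females. The highest library, dsxRNAi female 1, was also the highest dsxRNAi female for Yp1, Yp2 and Yp3. The part of either tissue in the yolk protein values was not tested.

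The remaining called target, Gld, encodes glucose dehydrogenase, an enzyme known from cuticle and the male reproductive tract. It had 2, 0 and 0 reads in dsxRNAi females, against 20, 13 and 18 in control females, that is 2 reads against 51, a ratio of 24.5 in favour of the control females with a counting interval of 6.45 to 208. Here and below, counting intervals cover counting error only and leave out the larger spread between replicates. Its neighbour Syt4, a synaptotagmin of regulated vesicle release, was near 0 in the same libraries. Syt4 had 0.0232, 0.0737 and 0 CPM in dsxRNAi females, against 22.6, 28.6 and 23.1 CPM in control females (log2 change −9.46 ± 0.378 (SE), adjusted p = 9.45e-08). With so few reads in 1 group the fitted change of Syt4 shifts, to −10.7 without dsxRNAi female 2. The 2 genes lie side by side on 3R, Gld at 7252063 to 7265703 and Syt4 at 7266065 to 7270809. Both were also called lower in dsxRNAi males, with log2 changes of −3.12 for Gld and −8.12 for Syt4.

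In the list of peritrophic matrix and mucin genes, 3 of 13 tested were called higher and none lower, and among digestive serine proteases 3 of 31 were higher and none lower, against 1.91% higher and 1.55% lower over all tested genes. The strongest of these was Muc68E, a secreted mucin. It had 1939, 2404 and 2373 CPM in dsxRNAi females, against 1114, 1049 and 1346 CPM in control females, so that the lowest dsxRNAi library exceeded the highest control library. Its level was 1.91-fold higher (log2 change 0.94 ± 0.124 (SE), adjusted p = 7.71e-04), and the call held in all 12 fits. Peritrophin-15a and Peritrophin-15b, small chitin-binding proteins of the peritrophic matrix, are neighbours on 2L and rose 1.6-fold and 1.66-fold. Peritrophin-15a had 249.6, 267 and 264 CPM in dsxRNAi females, against 124, 176 and 189.7 CPM in control females (log2 change 0.68, adjusted p = 0.0444), and was not called without dsxRNAi female 1, 2 or 3, control female 1 or 2, dsxRNAi male 1, 2 or 3 or control male 2 (adjusted p 0.0548 to 0.14). Peritrophin-15b had 15.8, 14.8 and 17.6 CPM in dsxRNAi females, against 7.59, 8.23 and 13.2 CPM in control females (log2 change 0.73, adjusted p = 0.0346), and was not called without dsxRNAi female 1, 2 or 3, control female 1 or 2, dsxRNAi male 1 or 3 or control male 1 or 2 (adjusted p 0.0518 to 0.125). The list's median log2 change was −0.136, and 6 of its 13 tested members lay above 0. Muc68D (log2 change −5.92) and Muc11A (log2 change −7.51) were not called: Muc68D had 2.46, 5.67 and 2.68 CPM in dsxRNAi females, against 9.84, 642 and 1.58 CPM in control females, and Muc11A 0.0929, 0 and 0.223 CPM in dsxRNAi females, against 29, 29.8 and 0.209 CPM in control females. Their high values were in control female 2 for Muc68D and in control females 1 and 2 for Muc11A.

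The digestive serine proteases had a median log2 change of 0.263, with 24 of 31 above 0. The calls among them numbered 1 without dsxRNAi female 2 or control female 3 and 5 without control female 2. Among them iotaTry, a trypsin, had 183, 198 and 189.8 CPM in dsxRNAi females, against 113, 142 and 134 CPM in control females, without overlap (log2 change 0.55 ± 0.0894 (SE), adjusted p = 0.00349), and passed in all 12 fits. Jon66Ci, a Jonah chymotrypsin-like protease, had 565, 766 and 472 CPM in dsxRNAi females, against 254, 370.5 and 292 CPM in control females (log2 change 0.98 ± 0.196 (SE), adjusted p = 0.0173). The Jon66Ci groups did not overlap, and the call was lost without dsxRNAi female 2 or control female 1 or 3 (adjusted p 0.0616 to 0.0745). Ser8, another serine protease, had 167, 156 and 125 CPM in dsxRNAi females, against 68.5, 89.6 and 71 CPM in control females (log2 change 0.97, adjusted p = 0.0493). The call of Ser8 was lost without dsxRNAi female 1, 2 or 3, control female 1, 2 or 3, dsxRNAi male 3 or control male 2 (adjusted p 0.0606 to 0.166). Neither of the 2 tested aspartic proteases was called in females. Bace had 10748, 11301 and 10446 CPM in dsxRNAi females, against 7842, 12801 and 11419 CPM in control females, with overlapping groups (log2 change 0.02, adjusted p = 0.986), whereas in males its log2 change was 2.35, and the test of female against male effects passed (adjusted p = 0.00308).

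The 7 called genes at 500 CPM or more, picked out after their values were seen, were all higher: CG31233, Muc68E, CG11911, CG17571, CG4363, CG3739 and Unc-115a. CG17571 had 1674, 1833 and 1809.5 CPM in dsxRNAi females, against 651, 829 and 834 CPM in control females, 2.3-fold higher (log2 change 1.20 ± 0.146 (SE), adjusted p = 3.98e-04), and passed in all 12 fits. Next, CG31233 had 2451, 2934 and 2225 CPM in dsxRNAi females, against 1012, 1539 and 1096 CPM in control females (log2 change 1.06, adjusted p = 0.0173), and CG11911 2271, 2355 and 2269.9 CPM in dsxRNAi females, against 1108, 1410.4 and 1203 CPM in control females (log2 change 0.89, adjusted p = 0.0199). No dsxRNAi library of these 3 genes fell within the control range. The call of CG31233 was lost without dsxRNAi female 2 or control female 1 or 3 (adjusted p 0.0717 to 0.0806), and that of CG11911 without dsxRNAi female 1, 2 or 3 or control female 1 or 3 (adjusted p 0.0585 to 0.0839). The other members gave log2 changes of 0.64 for CG4363, 0.76 for CG3739 and 0.45 for Unc-115a, an actin-binding protein. CG4363 was not called without dsxRNAi female 1 (adjusted p 0.0595), CG3739 without dsxRNAi female 1 or 2 or control female 1 or 3 (adjusted p 0.0864 to 0.11) and Unc-115a without dsxRNAi female 2 (adjusted p 0.0523). Starch and sugar digestion gave no call in 15 tested genes (median log2 change −0.178), and the 6 lysosomal alpha-mannosidases none (median 0.445).

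**Figure D2:**
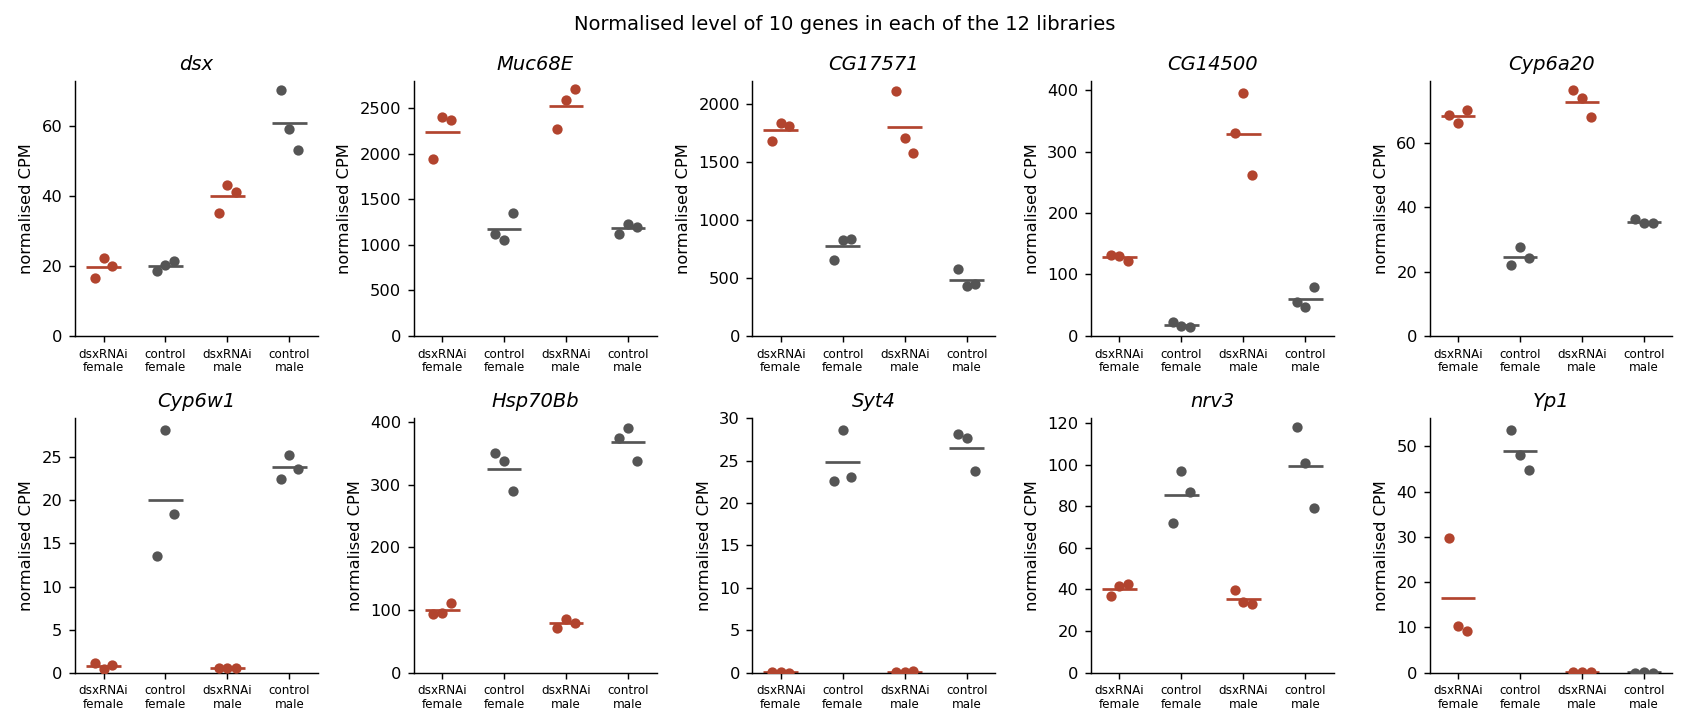
Normalised CPM (y axis, linear from 0) of 10 genes in each of the 12 libraries; points are libraries, horizontal lines group means, red dsxRNAi and grey control. Muc68E, CG17571, CG14500 and Cyp6a20 are higher and Cyp6w1, Hsp70Bb, Syt4 and nrv3 lower in dsxRNAi females with no overlap, while dsx overlaps in females.

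Lists of lipid and sugar metabolism held 0 to 2 calls each, where 3.46% of all tested genes were called. Of 18 genes of lipolysis and fatty acid oxidation 1 was called, bmm (brummer), the main triglyceride lipase of fat storage. It had 118, 167 and 96.9 CPM in dsxRNAi females, against 55.4, 81.6 and 68.4 CPM in control females, 1.86-fold higher (log2 change 0.89, adjusted p = 0.0435), and was not called without dsxRNAi female 1 or 2, control female 1 or 3, dsxRNAi male 1, 2 or 3 or control male 3 (adjusted p 0.0548 to 0.142). Lipid synthesis and storage gave 0 calls in 23 genes (median log2 change 0.2). Among 29 genes of lipid digestion and transport 1 rose and 1 fell. CG17191, of the lipase list, had 0.929, 1.91 and 1.49 CPM in dsxRNAi females, against 0.392, 0.0251 and 0.0927 CPM in control females (log2 change 3.02, adjusted p = 0.0244), and was not called without dsxRNAi female 2 or 3 or control female 3 (adjusted p 0.0687 to 0.101). Without control female 1 its log2 change was 4.52. Lip4, a lipase, had 2.81, 2.87 and 3.25 CPM in dsxRNAi females, against 8.68, 8.38 and 5.63 CPM in control females (log2 change −1.34, adjusted p = 0.0491), and was not called without dsxRNAi female 1, 2 or 3, control female 1 or 2, dsxRNAi male 2 or control male 1, 2 or 3 (adjusted p 0.0538 to 0.17). The sugar transporter sut3 was called among 10 transporters, at a low level of 0.998, 0.614 and 1.51 CPM in dsxRNAi females, against 0.305, 0.125 and 0.232 CPM in control females (log2 change 2.21, adjusted p = 0.0227). It was not called without dsxRNAi female 1 or 3 or control female 2 or 3 (adjusted p 0.0603 to 0.1). Glycolysis had 0 calls in 14 genes.

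An insulin-like peptide gene was close to undetected in control females. Ilp3, which is produced by brain neurosecretory cells and by gut muscle, had 58, 48 and 56 reads in dsxRNAi females, against 0, 2 and 0 in control females, a sum of 162 against 2. The ratio was 84.2 with a counting interval of 22.9 to 701 (adjusted p = 1.53e-04). Ilp3 was the 1 called gene among 14 of insulin and TOR signalling, passed in all 12 fits, and was also called higher in dsxRNAi males (log2 change 5.58). Beside it, visceral muscle markers summed to 4402 to 5755 CPM in dsxRNAi females, against 4548 to 4859 CPM in control females, and neuronal markers to 74.4 to 100.3 CPM in dsxRNAi females against 87.4 to 104.9 CPM in control females, and their part in the Ilp3 value was not tested.

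Called detoxification enzymes lay in both directions. Malpighian tubule, another detoxifying tissue, had markers summing to 27.6 to 35.8 CPM in dsxRNAi females, against 35.4 to 44.5 CPM in control females, with none of the 6 at 0 in all 6 libraries. None of them was called and 1 had a log2 change above 0 (median −0.837), and their part in the detoxification values was not tested. Most of the sum was Irk2, with 25.2, 32.5 and 33.65 CPM in dsxRNAi females, against 35.8, 36.8 and 31.2 CPM in control females, with overlapping groups. Of 73 tested cytochrome P450 genes, 4 were called higher and 8 lower, a share of calls above the 3.46% of all genes, with a median log2 change of −0.0773. The higher calls numbered 2 without dsxRNAi female 2 and 8 without control female 2, and the lower calls 5 without dsxRNAi female 3. The higher ones were Cyp6a20, Cyp6a17, Cyp9f3 and Cyp6t1. Cyp6a20, known from work on aggression and pheromone sensing, had 68.8, 66.2 and 70.2 CPM in dsxRNAi females, against 22, 27.6 and 24.2 CPM in control females, 2.78-fold higher (log2 change 1.48 ± 0.0814 (SE), adjusted p = 8.58e-07). Its neighbour Cyp6a17, known from temperature preference, had 21.2, 24.2 and 22.9 CPM in dsxRNAi females, against 13.8, 14 and 11 CPM in control females (log2 change 0.82 ± 0.115 (SE), adjusted p = 0.00122). Between these 2 genes on 2R lies Cyp6a23, which moved the other way, with 217, 279 and 267 CPM in dsxRNAi females, against 356, 338 and 364 CPM in control females (log2 change −0.47, adjusted p = 0.0134). None of the 3 neighbours had overlapping groups, and Cyp6a23 was not called without control female 3 (adjusted p 0.0626). Cyp9f3 rose 1.49-fold and was not called without dsxRNAi female 2 or control female 1 (adjusted p 0.0511 to 0.0566). Cyp6t1 rose 1.4-fold and was not called without dsxRNAi female 1 or 2 or control female 1 or 3 (adjusted p 0.0577 to 0.113).

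The lower P450 genes were led by Cyp6w1, an insecticide-inducible enzyme, with 1.07, 0.368 and 0.893 CPM in dsxRNAi females, against 13.6, 28.2 and 18.5 CPM in control females. It was 25.7-fold lower (log2 change −4.68 ± 0.337 (SE), adjusted p = 1.91e-05). Cyp6a2, overexpressed in DDT-resistant strains, had 17.8, 17.2 and 10.9 CPM in dsxRNAi females, against 32.9, 55.8 and 55.4 CPM in control females (log2 change −1.65, adjusted p = 0.0178), and was not called without dsxRNAi female 2 or 3 or control female 3 (adjusted p 0.0533 to 0.0676). Cyp12d1-p and Cyp12d1-d, near-identical tandem copies that may share reads, fell 2.08-fold and 2.54-fold. Control female 2 was the highest library for both copies and for Cyp6w1. Smaller or rarer changes were those of Cyp6d4 (log2 change −0.55), Cyp4ac2 (log2 change −1.27) and Cyp310a1, with 1 read in the dsxRNAi females against 35 in the control females (ratio 33.7 in favour of the controls, counting interval 5.66 to 1370). Cyp310a1 was not called without dsxRNAi female 2 or 3 or control female 1 (adjusted p 0.068 to 0.0871), and Cyp12d1-p without dsxRNAi female 3 (adjusted p 0.0551). Of the 12 called P450 genes, 6 passed in all 12 fits: Cyp6a20, Cyp6a17, Cyp6w1, Cyp6d4, Cyp4ac2 and Cyp12d1-d.

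Among 34 glutathione transferases, 2 were higher and 3 lower, against 1.91% and 1.55% of all tested genes. The number lower ranged from 0 without dsxRNAi female 3 to 8 without dsxRNAi male 2, and was 1 without dsxRNAi female 1, control female 1 or control female 3. GstO3, an omega-class enzyme, had 155, 168 and 159.9 CPM in dsxRNAi females, against 108, 111 and 111 CPM in control females (log2 change 0.55 ± 0.0804 (SE), adjusted p = 0.00171), and GstE11 7.34, 8.86 and 8.49 CPM in dsxRNAi females, against 5.2, 4.89 and 5.26 CPM in control females (log2 change 0.68 ± 0.114 (SE), adjusted p = 0.00421). Both passed in all 12 fits, with narrow groups. GstD5 had 3.62, 5.23 and 3.55 CPM in dsxRNAi females, against 12.8, 11.8 and 10.6 CPM in control females (log2 change −1.50, adjusted p = 0.0141). It was not called without dsxRNAi female 1 or 3 or control female 1 (adjusted p 0.0536 to 0.0709). GstZ1 fell to a smaller degree (log2 change −0.50), and GstE10 had 3 reads in the dsxRNAi females against 101 in the control females, a ratio of 32.4 in favour of the controls with a counting interval of 10.8 to 160. The call of GstZ1 was lost without dsxRNAi female 3 or control female 3 (adjusted p 0.0521 to 0.0591), and that of GstE10 without dsxRNAi female 1, 2 or 3, control female 1, 2 or 3 or control male 1, 2 or 3 (adjusted p 0.054 to 0.128). For GstE10 the fitted log2 change was −4.85, and −8.02 without dsxRNAi female 2. UDP-glycosyltransferases gave 0 calls in 15 genes.

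Copies of Hsp70 were lower in dsxRNAi females. Of 13 tested heat shock genes, 4 were called, all lower, against 1.55% lower over all tested genes. All 4 are copies of Hsp70 in 1 cluster on 3R (12465453 to 12511461), and the list's median log2 change was −1.4. Hsp70 is the inducible chaperone of the heat and stress response. Hsp70Bb had 93.9, 95.5 and 111 CPM in dsxRNAi females, against 350.02, 338 and 289 CPM in control females, 3.25-fold lower (log2 change −1.70 ± 0.107 (SE), adjusted p = 1.90e-06), and Hsp70Ba 29.1, 27.2 and 33 CPM in dsxRNAi females, against 121, 93.8 and 77 CPM in control females (log2 change −1.71 ± 0.148 (SE), adjusted p = 3.41e-05). In both copies every dsxRNAi library lay far below the lowest control library. Hsp70Bc (log2 change −1.84, adjusted p = 0.00678) and Hsp70Bbb (log2 change −1.82, adjusted p = 0.0144) moved alike, but the copies are near-identical and may share reads, so these calls may not be independent. Hsp70Bbb was not called without dsxRNAi female 1 or 2 (adjusted p 0.0647 to 0.0731). The 2 copies of the other Hsp70 cluster, Hsp70Aa and Hsp70Ab, both had a log2 change of −1.40 and were not called (adjusted p = 0.617).

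**Figure D3:**
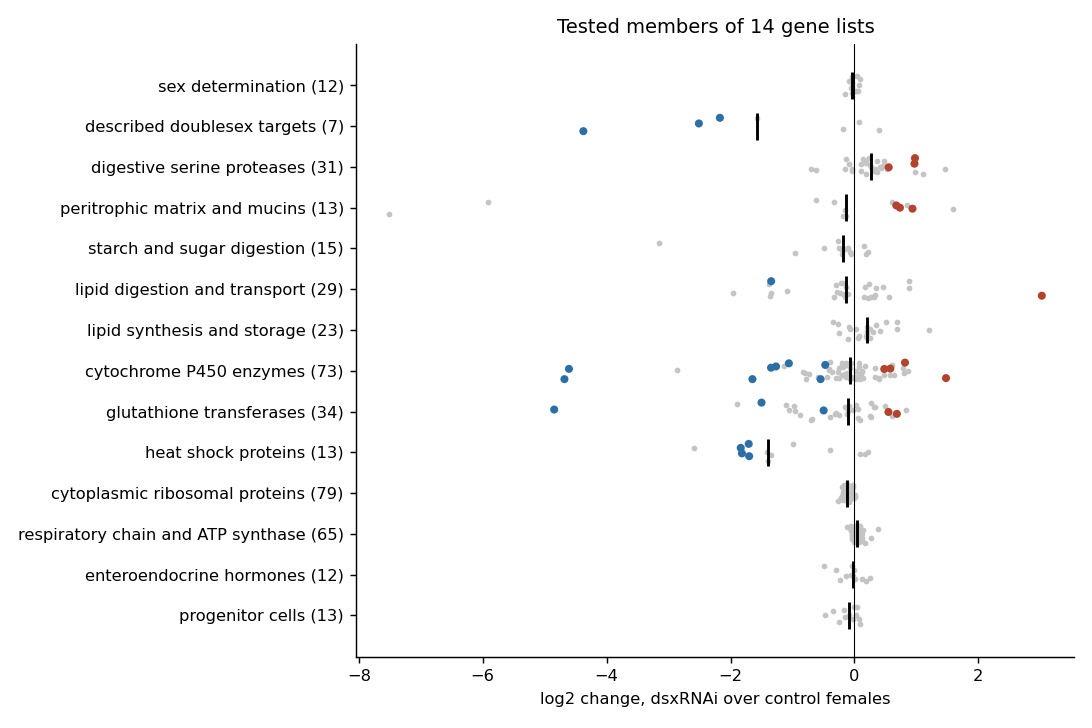
Log2 change between dsxRNAi and control females (x axis) for the tested members of 14 gene lists (rows, with the number tested); grey points were not called, red points were called higher and blue points lower, and black bars are list medians. P450 and glutathione transferase genes carry calls on both sides of 0, the called heat shock genes and doublesex targets lie below 0, and ribosomal proteins and progenitor markers carry no call.

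Growth and energy genes gave few calls in females, where 3.46% of all tested genes were called. The shorter lists may hold no call at that share. Myc, the growth regulator that is known to drive ribosome production in enterocytes, had 218, 229 and 237 CPM in dsxRNAi females, against 251, 250.04 and 266 CPM in control females. All dsxRNAi females lay below all control females, where groups did not overlap in 17.0% of all tested genes. The difference in Myc did not pass (log2 change −0.16 ± 0.0952 (SE), adjusted p = 0.487). In males its log2 change was 0.42, in the opposite direction (test of female against male effects, adjusted p = 0.0704). The 79 cytoplasmic ribosomal proteins had 0 calls and a median log2 change of −0.113, with 2 above 0. In dsxRNAi males 24 of them were called higher (median 0.286), where 8.05% of all tested genes were higher. Of 22 genes of the Myc network and ribosome biogenesis, 0 were called (median −0.161). Respiratory chain and ATP synthase subunits had 0 calls in 65 genes, against 40 called higher in males, and proteasome subunits 0 in 32. Of 71 mitochondrial ribosomal proteins only mRpS31 was called (log2 change 0.37, adjusted p = 0.0369), and not without dsxRNAi female 1 or 2, control female 2 or 3, dsxRNAi male 1, 2 or 3 or control male 2 (adjusted p 0.05 to 0.166). The test of female against male effects passed in 1 cytoplasmic ribosomal protein gene and in none of the ribosome biogenesis, respiratory chain, proteasome or mitochondrial ribosomal genes. In cell cycle and DNA replication 1 of 20 genes was called, the mitotic kinase gene aurB (log2 change 1.19, adjusted p = 0.0237), and not without dsxRNAi female 1 or 2 or control female 2 or 3 (adjusted p 0.0668 to 0.101).

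Single genes of hormone signalling, immunity and ion transport were also called. The sex peptide receptor gene SPR, whose product mediates the female response to mating, was 12.5-fold higher and was the only X-linked call that passed in all 12 fits. It had 5.39, 5.38 and 3.4 CPM in dsxRNAi females, against 0.544, 0.251 and 0.324 CPM in control females (log2 change 3.64 ± 0.587 (SE), adjusted p = 0.00449). Drsl2, a drosomycin-like antimicrobial peptide, was the 1 call among 16 immune genes (3.46% over all tested genes), with 17, 7.46 and 26.4 CPM in dsxRNAi females, against 1.96, 0.502 and 1.14 CPM in control females (log2 change 3.80, adjusted p = 0.0144), and was not called without control female 3 (adjusted p 0.068). Burs, a subunit of the hormone bursicon, fell to 5.48, 7.32 and 6.6 CPM in dsxRNAi females, against 12.1, 10.9 and 11.4 CPM in control females (log2 change −0.83 ± 0.131 (SE), adjusted p = 0.003). The beta subunit of a sodium pump, nrv3, was the 1 call among 9 enteroendocrine identity and peptide-processing genes, with 36.7, 41.8 and 42.6 CPM in dsxRNAi females, against 71.8, 97.1 and 86.8 CPM in control females (log2 change −1.08 ± 0.147 (SE), adjusted p = 0.0011). The steroid hydroxylase shd, which makes active ecdysone, rose 3.42-fold (log2 change 1.77, adjusted p = 0.00262), and Eip55E, an ecdysone-induced gene that encodes a cystathionine gamma-lyase, 2.07-fold (log2 change 1.05, adjusted p = 0.00172). None of the 14 genes in the ecdysone and juvenile hormone list was called.

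Ranked only where the average log2 CPM reached 1, the called genes with the largest changes were mostly of unassigned function. Upward, CG34215 (40.6-fold), CG30289 (25.3-fold), CG7227 (10.4-fold), CR33013 (8.18-fold), CG11000 (7.77-fold) and CG14500 (7.04-fold) stood out. CG14500 had 132, 130.2 and 122 CPM in dsxRNAi females, against 23.3, 15.9 and 15.2 CPM in control females (log2 change 2.82 ± 0.237 (SE), adjusted p = 5.79e-05). CG43400 followed at 5.46-fold, then the methuselah-like receptor gene mthl9 at 4.2-fold and Mpcp1, a mitochondrial phosphate carrier, at 4.01-fold. Mpcp1 had 19.8, 18.6 and 16.6 CPM in dsxRNAi females, against 3.92, 5.32 and 4.47 CPM in control females (log2 change 2.01 ± 0.13 (SE), adjusted p = 2.05e-06). Acf, a subunit of chromatin-remodelling complexes, had 11.5, 8.96 and 10.9 CPM in dsxRNAi females, against 2.79, 2.33 and 2.94 CPM in control females (log2 change 1.96 ± 0.153 (SE), adjusted p = 1.09e-05), and su(Hw), an insulator-binding protein, 35.2, 34.1 and 33.2 CPM in dsxRNAi females, against 18.4, 15.4 and 15.8 CPM in control females (log2 change 1.05 ± 0.0742 (SE), adjusted p = 4.71e-06). All of these genes passed in all 12 fits and were called higher in dsxRNAi males too. CG34215, CG7227, CG14500, mthl9, Acf and su(Hw) overlap a gene on the other strand.

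The smallest adjusted p of the contrast belonged to CG32850 on chromosome 4 (4:314923-331387), with 123, 107 and 127 CPM in dsxRNAi females, against 33.1, 30.7 and 31 CPM in control females (log2 change 1.91 ± 0.0733 (SE), adjusted p = 3.27e-08). It lies on the opposite strand of the calcium pump gene PMCA, and no source used here says whether the counting used strand. The homeobox gene bsh had 23, 44 and 33 reads in dsxRNAi females, against 0, 0 and 0 in control females. Against the 3 reads that a count of 0 over the group allows by counting error alone, it was at least 34.6-fold higher. CG5282 was likewise at least 22.9-fold higher, with 28, 15 and 23 reads in dsxRNAi females, against 0, 0 and 0 in control females. Downward, CG17350 had no read in dsxRNAi females and 72, 73 and 88 in control females, at least 74.7-fold lower, and CG14669 at least 12.5-fold lower.

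Other large falls were those of CG32302 (43.9-fold), CG15169 (8.32-fold), CR45044 (8.69-fold), CR43767 (7.76-fold) and CG14661 (6.84-fold). CG32302 had 3.48, 0.565 and 4.17 CPM in dsxRNAi females, against 176, 67 and 119 CPM in control females (log2 change −5.46 ± 0.669 (SE), adjusted p = 0.00232). CG13313 changed less but with little spread, with 11.8, 12.7 and 12.8 CPM in dsxRNAi females, against 31.2, 32.1 and 33.3 CPM in control females (log2 change −1.37 ± 0.0815 (SE), adjusted p = 1.26e-06). CG33346 had 213, 185 and 202 CPM in dsxRNAi females, against 584, 419 and 479 CPM in control females (log2 change −1.31 ± 0.121 (SE), adjusted p = 4.25e-05). These 7 genes passed in all 12 fits. CG32302, CR45044 and CR43767 overlap a gene on the other strand. The lectin gene lectin-24A (log2 change −2.02, adjusted p = 0.0469) was not called without dsxRNAi female 1, 2 or 3, control female 2 or 3, dsxRNAi male 2 or control male 1, 2 or 3 (adjusted p 0.0632 to 0.162).

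Calls were unevenly spread over the chromosomes. On the arms of chromosomes 2 and 3, where the labels place the transgenes, 318 of 7808 tested genes were called (4.07%), and on the X, for which the labels give both genotypes the same makeup, 11 of 1590 (0.692%). By arm the shares were 5.52% on 2L, 3.5% on 2R, 3.29% on 3L, 4.06% on 3R and 2.44% on chromosome 4, where CG32850 and CG31997 were the 2 calls. In dsxRNAi males the corresponding shares were 15.5% on chromosomes 2 and 3 and 10.8% on the X. The X-linked calls were SPR, Eo, Cyp6t1 and Sk1 upward, and Yp2, Yp3, Top1, alpha-Man-Ia, Scgdelta, spri and CR40469 downward. Their share was as low as 0.124% without dsxRNAi female 2 and as high as 1.37% without control female 2. On the X, Eo was not called without dsxRNAi female 1 or 2 or control female 1 or 3 (adjusted p 0.0719 to 0.0967), Top1 without dsxRNAi female 1 or 3 or control female 3 (adjusted p 0.0604 to 0.0848) and alpha-Man-Ia without dsxRNAi female 1 or 2 or control female 1 (adjusted p 0.0584 to 0.0773). Scgdelta was not called without dsxRNAi female 1 or 2, control female 1, 2 or 3 or control male 2 (adjusted p 0.0519 to 0.128), and spri without dsxRNAi female 1, 2 or 3, control female 2 or 3, dsxRNAi male 3 or control male 2 (adjusted p 0.0513 to 0.131). Sk1 was not called without dsxRNAi female 2 or 3, control female 1 or 3, dsxRNAi male 1, 2 or 3 or control male 1, 2 or 3 (adjusted p 0.0548 to 0.199), and CR40469 without dsxRNAi female 1, 2 or 3, control female 1, 2 or 3 or control male 1 or 2 (adjusted p 0.0527 to 0.117). On chromosome 4, CG31997 was not called without dsxRNAi female 2 or 3, control female 1, 2 or 3, dsxRNAi male 1 or control male 3 (adjusted p 0.053 to 0.135). Of the 159 calls that passed in all 12 fits, 157 lay on chromosomes 2 and 3, among them 21 copies of the histone repeat.

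**Figure D4:**
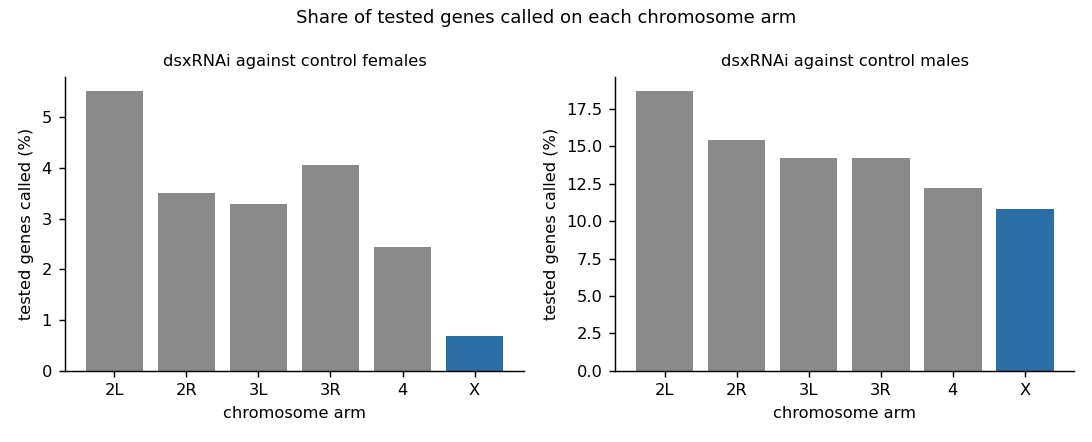
Percentage of tested genes called (y axis, from 0) on each chromosome arm (x axis) for dsxRNAi against control females (left) and males (right); the 2 panels have different scales, and the X is in blue. In females the X has 0.692% called and the other arms 2.44% to 5.52%; in males the X has 10.8%.

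The share on 2L includes the histone repeat, a tandem array of near-identical copies. All 20 tested copies of His2A were called higher, with log2 changes of 1.36 to 1.45 and 211 to 426 reads per copy in dsxRNAi females, against 90 to 177 in control females. Copies of this kind may share reads, so the 20 calls may not be independent. The RNA was poly(A)-selected, and the part of that selection in the histone counts was not tested. With 3 histone pseudogene copies they make up 23 of the 335 calls. The other histone genes of the repeat were not called: 23 copies of His1 (median log2 change −0.445), 23 of His2B (−0.291) and 12 of His4 (−0.928). His2A copies were also called higher in dsxRNAi males (20 of 20, median log2 change 0.778). Without the whole repeat, 312 of 9603 genes were called (3.25%), and 4.42% on 2L. The separate gene His3.3A, a replacement histone, had 165, 173 and 166 CPM in dsxRNAi females, against 129, 138 and 144 CPM in control females (log2 change 0.30, adjusted p = 0.0274), and was not called without dsxRNAi female 1, 2 or 3 or control female 1 or 2 (adjusted p 0.0522 to 0.117).

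Called genes lay near each other more often than the rest. Of 333 called genes with a position, 152 (45.6%) had another called gene within 50 kb, against 25.8% of the genes that were not called. Without the histone repeat the shares were 41.6% and 25.3%. Other copies that may share reads, such as the Hsp70 cluster, were kept. The shares were not split by arm, and the genes not called include most of the X, where 0.692% were called. Examples among genes already named are Gld with Syt4, Peritrophin-15a with Peritrophin-15b, the Hsp70 cluster, the 3 Cyp6a genes on 2R, and CG15169 with CG15170 on 2L. In the last pair the 2 neighbours moved in opposite directions. The shares per arm and the neighbour counts are descriptions without a test.

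Most female calls were shared with males. The male contrast used other libraries than the female one and called 1418 genes (14.6%). Of the 335 female calls, 247 (73.7%) were called in males in the same direction, 146 higher and 101 lower (8.05% of all tested genes were higher and 6.59% lower in dsxRNAi males), and they form 17.4% of the male calls. Another 83 were not called in males, and 314 of the 335 had the same sign. Over the 335 genes the female and male log2 changes had a Pearson r of 0.885, against 0.242 over all tested genes. The 335 were chosen by their female change, so the 2 r values cannot be compared directly. Genes passing in all 12 fits were shared more often still, 140 of 159 (88.1%), where the 159 include 21 histone repeat copies that may not be independent. The 159 were picked by how firmly they passed, in fits that also held male libraries. Their larger share is therefore not separate evidence. The 2 contrasts have the same difference in stock and share no library. They do share 1 estimate of spread per gene from the common fit, so their calls are not independent. Control male 1 stood apart in markers of male accessory gland, which summed to 120.2 CPM there and to at most 0.226 CPM in the other male libraries. Without it, 196 female calls were called in males in the same direction, and 45 genes differed between the sexes in the test given next, against 78 with it. Such movement was not particular to control male 1. Leaving out another male library instead gave 183 to 249 shared calls and 34 to 127 genes that differed.

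**Figure D5:**
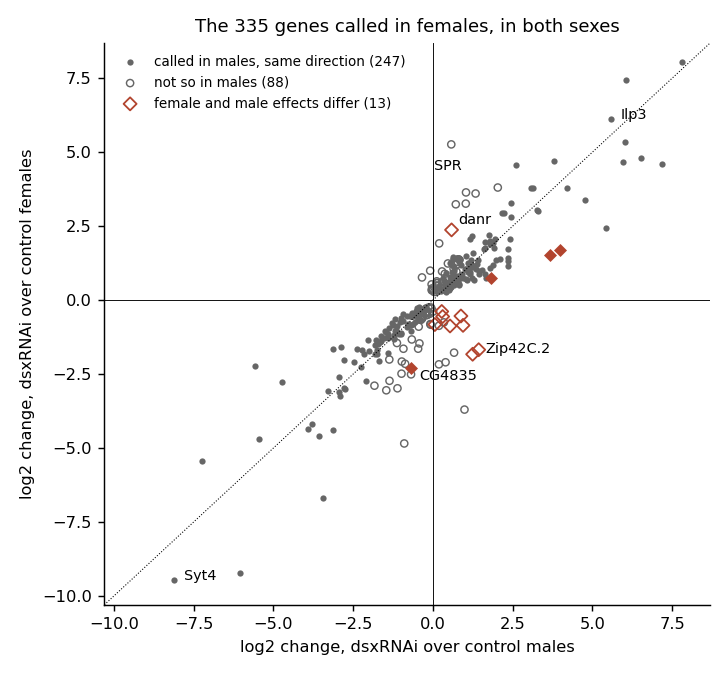
Log2 change in females (y axis) against log2 change in males (x axis), dsxRNAi over control, for the 335 genes called in females; filled grey points were called in males in the same direction, open points were not, red diamonds are the 13 genes whose female and male effects differ by test, filled where the gene was called in males in the same direction. Most points lie along the dotted line of equal change, and 5 genes called in both sexes fall in the lower right quadrant.

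The effect of dsxRNAi differed between females and males in 78 of 9686 genes (0.805%), 53 with a more negative (0.547%) and 25 with a more positive effect in females (0.258%). Of the 78, 13 were called in females. Of the 13, 5 were called in both sexes in opposite directions, all lower in dsxRNAi females and higher in dsxRNAi males: Zip42C.2, CG7912, CR44145, mt:ND2 and mt:tRNA:Trp-TCA. Zip42C.2, a zinc transporter of the gut, had 10.1, 9.43 and 6.15 CPM in dsxRNAi females, against 20.5, 33.8 and 27.8 CPM in control females (log2 change −1.68 ± 0.253 (SE), adjusted p = 0.00323). It had 7.1, 6.41 and 5.49 CPM in dsxRNAi males, against 2.87, 2.67 and 1.5 CPM in control males, and the difference between the effects was −3.11 on the log2 scale (adjusted p = 0.00311). CG7912 had 19.5, 25.8 and 22.5 CPM in dsxRNAi females, against 46.2, 42.5 and 35.7 CPM in control females, and 26, 21.7 and 22.3 CPM in dsxRNAi males, against 16, 17.8 and 14.5 CPM in control males (difference −1.41, adjusted p = 0.00308). Neither gene had overlapping groups in females or in males. The mitochondrial pair are neighbours on the mitochondrial genome, where 2 of 19 tested genes were called; mt:ND2, a subunit of respiratory complex I, had 23.7, 26.3 and 21.3 CPM in dsxRNAi females, against 30.3, 41.3 and 32 CPM in control females (log2 change −0.54, adjusted p = 0.0421). The mt:ND2 call was lost without dsxRNAi female 1, 2 or 3, control female 2 or 3, dsxRNAi male 2 or control male 1, 2 or 3 (adjusted p 0.0501 to 0.154), that of mt:tRNA:Trp-TCA without dsxRNAi female 1 or 3 or control female 1 (adjusted p 0.0563 to 0.0636) and that of CR44145 without dsxRNAi female 1, 2 or 3, control female 1 or 3, dsxRNAi male 1 or control male 2 (adjusted p 0.053 to 0.129).

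Larger effects in females than in males were found for CG4835 and danr. CG4835 had 5.18, 6.19 and 5.63 CPM in dsxRNAi females, against 29.9, 28.6 and 25 CPM in control females, 4.91-fold lower (log2 change −2.30 ± 0.173 (SE), adjusted p = 1.39e-05), where males had 20.1, 18.3 and 17.4 CPM with dsxRNAi and 22.3, 28.6 and 38.6 CPM in controls (difference −1.61, adjusted p = 0.00862). The transcription factor gene danr, known from antenna and eye development, had 3.55, 3.34 and 3.95 CPM in dsxRNAi females, against 0.805, 0.627 and 0.649 CPM in control females, 5.18-fold higher (log2 change 2.37 ± 0.219 (SE), adjusted p = 4.25e-05), against a male log2 change of 0.58 (difference 1.79, adjusted p = 0.0167). Conversely, CG15170, CG11741 and CG15544 rose in both sexes and by more in males. CG15170 had a log2 change of 0.73 in females and 1.81 in males (adjusted p of the difference = 0.00308). Of the rest, Burs, CG9394 and CR14033 fell in females and were not called in males. CG9394 was not called without dsxRNAi female 1 or 3 or control female 2 or 3 (adjusted p 0.0591 to 0.111), and CR14033 without dsxRNAi female 1 or 3, control female 1, 2 or 3, dsxRNAi male 1 or 3 or control male 3 (adjusted p 0.0548 to 0.14).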

How the data were processed

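Poly(A)-selected RNA from midguts was sequenced as paired-end reads of 100 bases with a directional kit, per the labels' protocols. The authors deposited raw read counts per gene, made with TopHat2 2.0.11 and featureCounts on dm6, per the submitters' processing notes. For the annotation release, strand setting and read filters, nothing is stated there. Rows without a symbol, 171 in all, held 2.17% of the counts. Reads from near-identical copies and from overlapping genes may have been split or pooled by the counting. Each female library held 39137615 to 42425002 assigned reads, and intervals on counts cover counting error only.

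From the deposited counts, genes were kept with edgeR 4.0.16 (filterByExpr, minimum count 10), scaled by trimmed mean of M values and fitted with 1 mean per group over all 12 libraries, since the 4 groups then share the estimate of spread. Contrasts were tested by robust quasi-likelihood tests with Benjamini-Hochberg adjustment over all 9686 genes, and called at an adjusted p under 0.05. Levels are normalised CPM values computed from the deposited counts, not corrected for length. R 4.3.3 was used. Positions come from the Ensembl annotation in dm6 coordinates. The fit was tested on simulated counts. The members and gene lists were chosen with earlier results of these data known. Genes were named by rank (the 12 largest changes per direction among calls without overlap whose average log2 CPM reached 1, up to 4 called members per list, the 6 smallest p-values, the 8 calls with the smallest p for female against male effects). Others, such as the X-linked calls, the genes above 500 CPM, SPR and Burs, were chosen after their values were seen. The alternatives were DESeq2 1.42.0, other scaling, filters, thresholds and sample sets, and a replicate block. The main fit did not pair the libraries by replicate number.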

Additional observations from a re-analysis of the deposited data

Results flagged for a closer look

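The following genes were picked out because the dsxRNAi effect in females differed from that in males by a test of the difference itself (adjusted p under 0.05, edgeR). The values are the female minus the male log2 effect. Among the genes given here, danr alone had a positive value, 1.79. Of the genes lower in dsxRNAi females, the difference was −1.61 for CG4835, −1.41 for CG7912, −3.11 for Zip42C.2, −1.42 for mt:ND2, −1.8 for CR44145, −0.887 for Burs, −3.08 for mt:tRNA:Trp-TCA, −0.661 for CR14033 and −0.862 for CG9394. It was −1.07 for CG15170, −2.3 for CG11741 and −2.16 for CG15544, which rose in both sexes. Bace, which was called in males and not in females, differed by −2.33. The 2 mitochondrial genes lie next to each other.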

How the results depend on the processing

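Every one of the 335 calls kept its sign in each alternative that tested it, but their number moved. DESeq2 called 601 genes (304 higher, 297 lower), of which 385 were shared with males, 341 differed between the sexes and 76 were list members. With only the female libraries 221 were called, 91 of them lower, and 31 of 94 named calls tested there were lost, Yp2, Yp3, CG32302, Drsl2 and Jon66Ci among them. At an adjusted p under 0.01 there were 160 calls (98 higher, 62 lower), 121 shared with males, 22 between the sexes and 16 list members. At an absolute log2 change of at least 1 there were 169 (93 higher, 76 lower), 109 shared with males and 23 list members. The share of X-linked genes called was 1.95% with DESeq2 (7.13% on chromosomes 2 and 3), 0.268% without an expression filter (2.32%), 0.194% with only the female libraries (2.85%), 0.0629% at an adjusted p under 0.01 (2.02%) and 0.252% at a log2 change of 1 (2.09%). Leaving out 1 library gave 204 to 374 calls, 114 to 220 higher and 86 to 174 lower. It gave 0.124% to 1.37% of X-linked genes, 162 to 249 calls shared with males, 33 to 127 between the sexes and 22 to 48 list members. The cause of these movements was not tested. The dsx change ranged from −0.15 to 0.0718, turning to 0.0718 without dsxRNAi female 1 and to 0.00649 without control female 3. Without dsxRNAi female 2 and without control female 1, tra turned to 0.0333 and 0.00828, and Bace to −0.0173 and −0.161, their leave-one-out values ranging from −0.114 to 0.0333 for tra and from −0.161 to 0.162 for Bace. These 3 genes were not called under any of those settings. With the replicate number as a block 328 genes were called, 286 of the 335 among them, 9 of 96 named calls were lost, and Yp1 had an adjusted p of 0.0241. Deviations from the group mean had r of 0.106, 0.113 and 0.0244 between same-numbered dsxRNAi and control females. Between differently numbered ones r was −0.11 to 0.0116. Whether same-numbered libraries shared a batch was not tested. A search for a doublesex motif in promoters was not run.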

Other observations

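A set of 36 genes had a log2 change of at least 2 in size and a mean level above 1 CPM in the female libraries but was not called. Of these, 35 had a log2 change below 0, and the highest female library was control female 2 for 28 genes, control female 1 for 7 and dsxRNAi female 2 for 1. CG34220 had 5.36, 18.3 and 4.99 CPM in dsxRNAi females, against 60.02, 2473 and 2.13 CPM in control females. CG16826 had 0.232, 0.0982 and 0.0248 CPM in dsxRNAi females, against 92.6, 245 and 0.0927 CPM in control females. In dsxRNAi males CG16826 stood at 230.0, 0.103 and 338 CPM, against 0.51, 1.64 and 0.796 CPM in control males. In each gene, libraries of 1 group lay far apart.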
